A study of Mus musculus with 6 samples.

Results

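A group of 192 genes was brightest in growth plate on the arrays of both genotypes. The genes were chosen by their readings on the arrays themselves. Each array gene name was represented by its brightest probe, taken as the highest mean over the 6 arrays, and that probe had to be well above background on all 6. Its level is the log2 of the processed signal minus the 75th percentile of that array, so a level of 0 is the 75th percentile and a difference of 1 is 2-fold. A gene entered the group when its growth plate level exceeded both the interzone and the interdigital level by 1 or more on the mutant arrays, and again on the control arrays. Of 27916 array gene names, 19238 had a brightest probe well above background on all 6 arrays, 16552 of those did not end in Rik, and 192 of the 16552 (1.16%) met the rule.

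The tissue came from autopods, the hand and foot plates of the limb, of C57BL/6 mouse embryos at E14.5, about the time the digits separate. Growth plate, interzone and interdigital tissue were laser-captured from 2 Tgfbr2Prx1KO embryos and 2 control littermates, labelled wild type. There was 1 array for each of the 3 tissues in each genotype, namely Tgfbr2Prx1KO growth plate, control growth plate, Tgfbr2Prx1KO interzone, control interzone, Tgfbr2Prx1KO interdigital and control interdigital. By convention the mutant name means deletion of Tgfbr2, the type II receptor for TGF-beta, by a Cre recombinase under the Prx1 promoter, which acts in limb mesenchyme and not in the epidermis or in blood-derived cells. The protocols in the labels describe an undisclosed PCR amplification (SuperAmp) ahead of labelling, and do not say which embryos, or how many captured cells, went onto an array. The descriptions of 5 samples name irradiated human blood, against their titles, organism and tissue labels, so the groups were taken from the titles.

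With 1 array per group, no difference below has a replicate check, and no test was made or p-value computed. Tgfbr2 itself, at its brightest probe, had a level of 1.20 on the mutant and -2.42 on the control growth plate array. Its level was 2.22 on the mutant and 2.42 on the control interzone array, and 1.91 on the mutant and 2.49 on the control interdigital array. A second probe well above background on all 6 arrays was higher on the mutant array of each tissue, at -1.24 in mutant and -2.97 in control growth plate, 0.87 in mutant and -0.06 in control interzone, and 0.52 in mutant and 0.45 in control interdigital tissue. The probes thus disagreed in interzone and interdigital tissue. At both probes the targeted gene was higher in the sample labelled mutant growth plate than in its control, which goes against the labels of that pair, and the deleted part of the gene is not named in the labels. Mutant and control below are the names on the labels. The growth plate control array stood apart, with the fewest spots well above background (72.3%, against 77.3% to 88.3% on the others) and the lowest median signal (103 units, against 340 to 502). The mutant growth plate and mutant interdigital arrays lay on slide 2 and the other 4 arrays on slide 1, so genotype and slide cannot be told apart in growth plate and interdigital tissue. The slides also differed in scan date. In mutants the growth plate minus interzone difference that the rule uses was taken across the slides as well, so tissue and slide cannot be told apart there.

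The growth plate is the band of cartilage that lengthens a bone. Its chondrocytes divide in columns, lay down a matrix of collagen II, IX and XI and of sulfated proteoglycans such as aggrecan, and then enlarge and become hypertrophic before bone replaces them. SOX9, SOX5 and SOX6 are the transcription factors that drive the cartilage matrix genes, and the interzone beside the growth plate is the cell layer that becomes the joint.

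Of 16 growth plate cartilage markers, all well above background on all 6 arrays, 1 passed the tissue rule among mutants (5.77% of all genes passed there). Among controls 13 passed (16% of all genes), and 0 passed in both (1.16% of all genes), so none was a member. The counts in mutants and in both genotypes were near the shares of all genes, and the control count was above its share. After quantile normalization 1 of the 16 passed in both, and 1 with the deposited table. One of the markers, Sox5, has an array name ending in Rik and could not have entered, and it passed in neither genotype. The median margin of growth plate over the higher of the other tissues was -0.39 in mutants and 2.18 in controls for these markers, against -0.42 in mutants and -0.19 in controls for all genes tested. The marker that passed among mutants was Sox6, with a margin of 1.48 in mutants and 0.85 in controls. All 8 cartilage collagens on the list passed in controls and 0 passed in mutants.

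Col2a1, the collagen II gene, had a mutant level of 5.43 in growth plate, 5.75 in interzone and 5.38 in interdigital tissue. Its control levels were 7.96 in growth plate, 6.56 in interzone and 5.81 in interdigital tissue. The 3 mutant tissues thus lay close together, while control growth plate stood above all other arrays. Acan, which encodes aggrecan, had 1.5, 0.65 and 1.75 in mutant growth plate, interzone and interdigital tissue, against 5.31, 2.73 and 1.69 in the same tissues of controls. Mutant growth plate was here below mutant interdigital tissue, and control growth plate was again the highest array. The summed linear level of the marker list, in units of the array's 75th percentile, was 89.2 in mutant and 759.6 in control growth plate, 95.6 in mutant and 202.7 in control interzone, and 78.8 in mutant and 117.3 in control interdigital tissue. In the mutant growth plate array 15 of the 16 markers were at least 2-fold below the control growth plate array (30.5% of all genes were), with a median difference of -3.64. Under the other scalings 14 to 16 were. Genotype and slide cannot be told apart in this pair of arrays, and the control growth plate array was the dimmest. Fewer chondrocytes in the captured cells, less RNA per chondrocyte and a difference between the arrays themselves cannot be told apart in such bulk samples.

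**Figure D1:**
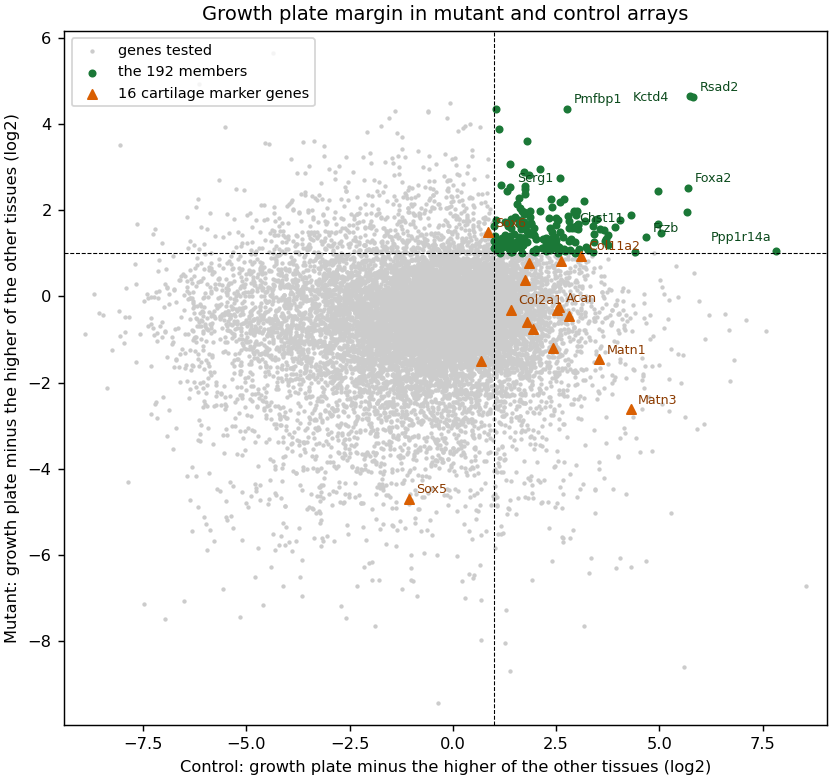
Growth plate margin in mutant arrays (vertical axis) against control arrays (horizontal axis) for the 16552 genes tested (grey), with the margin being growth plate minus the higher of interzone and interdigital level on the log2 scale. Dashed lines mark a difference of 1, the 192 members (green) fill the upper right corner by the rule that chose them, and of the 16 cartilage markers (triangles) 13 lie right of the control line and 1 above the mutant line.

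Seen by genotype, the growth plate rule was met by 955 genes among mutants (5.77%) and by 2642 among controls (16%). The members were 20.1% of the genes that passed in mutants, against 16% of all genes passing in controls. They were 7.27% of those that passed in controls, against 5.77% of all genes passing in mutants. The same rule applied to interzone gave 173 genes in both genotypes (1.05%), out of 1638 in mutants (9.9%) and 1243 in controls (7.51%). Applied to interdigital tissue it gave 154 genes (0.93%), out of 984 in mutants (5.94%) and 1214 in controls (7.33%). The growth plate group was thus close in size to its counterparts. Left to the mutants alone, without the growth plate control array, the rule gave the 955 genes above, and with mutant growth plate set only against mutant interdigital tissue, both on slide 2, and the rule in controls kept whole, it gave 429 in place of 192.

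Because the rule set a floor of 1, the margins are a description. Among the 192 members the margin ranged between 1.001 and 4.66 in mutants with a median of 1.40 (2.64-fold), and between 1.001 and 7.82 in controls with a median of 1.92 (3.79-fold). The control margin was the larger for 138 members and the mutant margin for 54. The smallest of the 4 differences, which decided membership, was growth plate minus interdigital in mutants for 83 members, growth plate minus interzone in mutants for 55, growth plate minus interdigital in controls for 28 and growth plate minus interzone in controls for 26. In 157 members both growth plate arrays stood above all 4 other arrays, as in 7.36% of all genes, a count that the rule all but fixes. In the remaining members the lower growth plate array, though ahead within its genotype, was passed by an array of the other genotype. The members just inside the rule were Upf3b, Mettl15, Igflr1, AK085010 and Tfap2c, with a smallest difference of 1.001 to 1.006. Just outside it lay BC051212, Fen1, Icam1, Rpgrip1 and Ubac1 at 0.990 to 0.998.

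Only 12 members had a smallest difference of 2 or more. Kctd4, a member of the potassium channel tetramerisation domain family, had -0.50 in mutant and 2.26 in control growth plate, while its other 4 arrays lay between -5.32 and -3.48. Rsad2, the interferon-induced antiviral protein viperin, had -0.53 in mutant and 1.52 in control growth plate, against -5.46 to -4.29 on the other arrays. Kctd4 was 25.3-fold and Rsad2 24.8-fold above the next tissue in mutants, the control margins were larger, and the growth plate arrays did not overlap with the rest. Pmfbp1, which is known from the sperm head and tail junction, had -1.87 in mutant and -3.07 in control growth plate, and -6.73 to -5.83 elsewhere. It was the one of these 3 that was brighter in mutant than in control growth plate. The smallest difference was 4.66 for Kctd4, 4.63 for Rsad2 and 2.76 for Pmfbp1. After normexp background correction it fell to 1.27 for Kctd4, 1.18 for Rsad2 and 0.01 for Pmfbp1. After quantile normalization it was 4.35 for Kctd4, 4.32 for Rsad2 and 3.91 for Pmfbp1. With the detected probes averaged it was 1.48 for Rsad2. The sizes for these 3 genes thus depended on the background correction. The other 9 were Kif20b, Foxa2, Lce1a1, Adamts7, Gtse1, and 4 transcripts without a gene symbol here (TC1525352, TC1467337, AK040368 and AK046951).

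Mutant and control arrays of 1 tissue were compared next, on the arrays that the rule had used. In growth plate 111 members (57.8%) were at least 2-fold below control on the mutant array, where 30.5% of all genes were, and 12 members (6.25%) were at least 2-fold higher, where 21.8% of all genes were. The 2 growth plate arrays lay within 2-fold of each other in 69 members. The members' median difference was -1.12, against -0.43 for all genes. In interzone 72 members (37.5%) were at least 2-fold lower in mutants (22% of all genes) and 24 (12.5%) at least 2-fold higher (16.9%). In interdigital tissue 64 members (33.3%) were at least 2-fold lower in mutants (15%) and 24 (12.5%) at least 2-fold higher (8.71%). Since the members were chosen on these same arrays, nothing is read from the distance to the background. The split also moved with the scaling. For the genes chosen after quantile normalization 34.5% were lower and 16% higher in growth plate, 23.0% lower and 22.3% higher in interzone, and 25.1% lower and 19.2% higher in interdigital tissue. For the genes chosen after normexp background correction the interzone split was 26.7% lower and 25.7% higher (12.0% and 31.4% of all genes). The interdigital split was 20.8% lower and 18.8% higher (10.9% and 7.56%). Of the 192 members themselves, 14.1% were lower and 39.6% higher in interzone after normexp. Their median difference there was 0.66, in place of -0.58. The median difference of all genes in growth plate was -0.06 with a percentile from only the probes that every array detected, and -1.56 in the deposited table, so each growth plate value depends on where that control array is centred.

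**Figure D2:**
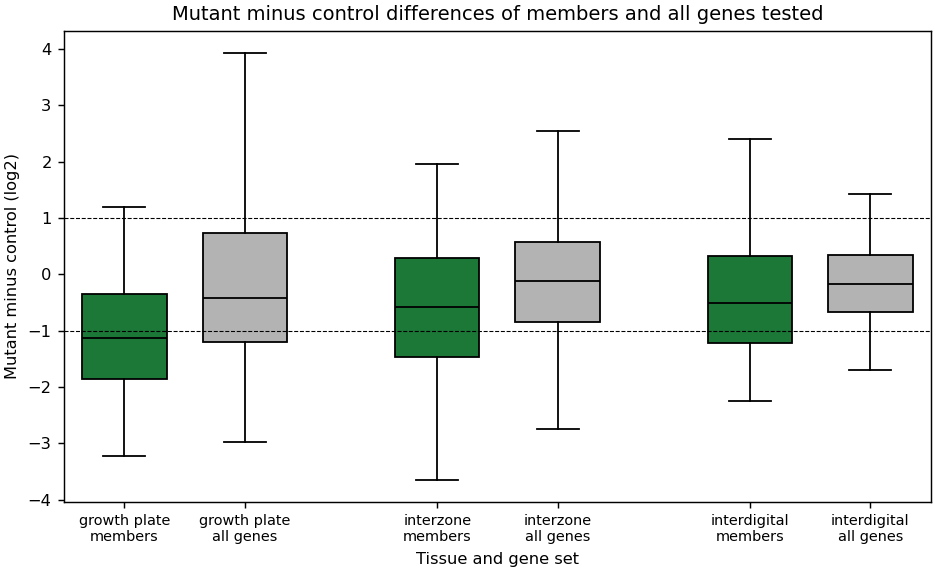
Mutant minus control difference on the log2 scale by tissue, for the 192 members (green) and all 16552 genes tested (grey). Boxes span the quartiles with the median as a line, whiskers reach the 5th and 95th percentiles, and dashed lines mark 2-fold. The members' medians are -1.12 in growth plate, -0.58 in interzone and -0.51 in interdigital tissue, against -0.43, -0.11 and -0.17 for all genes.

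The 11 pathway lists gave 9 members among 276 genes well above background on all 6 arrays (1.16% of all genes were members). Beside lists of cartilage genes they include integrins, the cell cycle, and hypoxia and glycolysis, which gave 3 of the 9. Of the 276 genes 14 have array names ending in Rik, of which 0 passed in both genotypes. The 9 were Foxa2, Frzb, Scrg1, Chst11, Slc35d1, Itgav, Pfkp, Aldoc and Pfkfb3. Lists of 11 cell types held 116 measured genes and 0 members. The cell cycle list gave 0 members of 31 measured genes, with 4 passing in mutants (5.77% of all genes) and 6 in controls (16%). The hypertrophic list gave 0 of 14 measured genes, with 0 passing in mutants (5.77%) and 8 in controls (16%).

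Among genes of cartilage growth, matrix and sulfation, 10 members could be placed. Of these, 9 were at least 2-fold lower in mutant than in control growth plate (30.5% of all genes, 57.8% of the 192 members). The range was -6.31 to -0.55, with a median of -2.49. Under the other scalings 7 to 10 of the 10 were at least 2-fold lower and 0 higher, against 21.2% of all genes lower with the percentile over detected probes, 28.3% with normexp, 37.8% with quantile and 64.8% with the deposited table, whose count was 10. Of the 192 members 42.7% were lower with the percentile over detected probes, 54.2% with normexp, 48.4% with quantile and 86.5% with the deposited table. These roles were assigned after the values were seen, and genes named below that fall outside the naming rule were chosen then too.

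Foxa2, a forkhead factor needed for chondrocyte hypertrophy, had -2.38 in growth plate, -4.90 in interzone and -6.55 in interdigital tissue of mutants. In controls Foxa2 had 0.83 in growth plate, -4.86 in interzone and -5.16 in interdigital tissue. Both growth plate arrays stood above the rest, by 5.74-fold in mutants and 51.6-fold in controls over the next tissue. After normexp background correction, which adds an offset of 50 to every signal, its smallest difference was -0.57. Frzb, a secreted Wnt antagonist of cartilage, had -0.90 in growth plate, -2.52 in interzone and -2.29 in interdigital tissue of mutants, against 2.97, -3.74 and -1.70 in the same tissues of controls. The growth plate arrays were again the 2 highest, with a margin of 1.38 in mutants and 4.67 in controls.

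Scrg1, a small secreted protein of cartilage and mesenchymal cells, was the list member with the largest mutant minus control difference in growth plate, at -4.32. It had -1.76 in growth plate, -5.17 in interzone and -4.30 in interdigital tissue of mutants. Controls had 2.57 in growth plate, 1.19 in interzone and -2.04 in interdigital tissue. Here the genotypes overlapped, because control interzone lay above mutant growth plate, and after normexp correction the smallest difference was -0.05. Sumf1, the enzyme that activates sulfatases, had -3.77, -4.81 and -4.94 in mutant growth plate, interzone and interdigital tissue, against 2.54, -3.65 and -1.86 in the same tissues of controls. Its growth plate difference of -6.31 between genotypes was the furthest below 0 of any member, and its smallest difference was -1.65 after normexp correction. All 3 control arrays of Sumf1 lay above every mutant array.

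Chst11, the chondroitin 4-O-sulfotransferase of cartilage, had 3.21 in growth plate, 0.52 in interzone and 1.62 in interdigital tissue of mutants. Its control levels were 4.24, 0.99 and 1.34 in the same tissues. Growth plate was the highest tissue in both genotypes, and the 2 growth plate arrays lay 1.03 apart. Slc35d1, which carries nucleotide sugars into the endoplasmic reticulum for chondroitin sulfate synthesis, had 1.29, -0.44 and 0.28 in mutant growth plate, interzone and interdigital tissue, against 3.59, 0.11 and 1.06 in controls. Itgav, the integrin alpha V chain, had 1.48, -1.84 and 0.17 in mutants, against 4.15, 0.66 and 1.83 in controls, in the same order of tissues. In Itgav control interdigital tissue was above mutant growth plate. Adamts7, a protease that cleaves the cartilage protein COMP, had margins of 2.21 in mutants and 3.17 in controls. Ror1, a Wnt5a receptor, was the member of these 10 within 2-fold between genotypes, at -0.55 in growth plate.

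The stretch before the start of 3 of these genes is shown because Foxa2 holds the one match to a SOX core motif among the list members. The letters ACAAAG or, on the other strand, CTTTGT were searched in the 250 bases before each start, on both strands, from RefSeq tables of GRCm38.p6. Of 12 promoters of 8 list members, 1 matched, and capitals mark the match, which begins 171 bases before that start. Foxa2 has other starts, and their stretches, chr2:148045949-148046198 and chr2:148046970-148047219, held 0 matches. The Foxa2 stretch shown was picked because it matched. The Foxa2 stretch is chr2:148045465-148045714, the Frzb stretch chr2:80447397-80447646, both on the minus strand, and the Chst11 stretch chr10:82985247-82985496 on the plus strand, each written 5′ to 3′ along its gene.
Foxa2: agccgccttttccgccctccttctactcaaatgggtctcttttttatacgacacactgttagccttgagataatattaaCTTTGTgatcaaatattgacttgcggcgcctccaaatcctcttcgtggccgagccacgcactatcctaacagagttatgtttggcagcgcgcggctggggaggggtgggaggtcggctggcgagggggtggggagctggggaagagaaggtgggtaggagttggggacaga
Frzb: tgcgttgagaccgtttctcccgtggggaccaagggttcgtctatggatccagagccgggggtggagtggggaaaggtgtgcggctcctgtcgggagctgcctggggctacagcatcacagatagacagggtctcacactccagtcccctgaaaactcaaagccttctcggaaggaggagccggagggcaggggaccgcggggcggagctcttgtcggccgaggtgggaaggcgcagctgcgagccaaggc
Chst11: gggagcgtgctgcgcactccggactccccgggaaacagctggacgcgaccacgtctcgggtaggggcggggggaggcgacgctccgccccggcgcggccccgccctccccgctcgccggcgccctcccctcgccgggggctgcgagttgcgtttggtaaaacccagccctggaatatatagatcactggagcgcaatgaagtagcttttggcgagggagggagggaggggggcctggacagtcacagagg
Over 147 promoters of 123 members 8.84% held this motif, against 13.9% of 13226 promoters of the genes tested and 16.5% of all 32851 promoters in the table. TATAAA or TTTATA was in 5.44% of the members' promoters, against 9.41% and 12.4%. The E-box CACGTG, which reads alike on both strands, was in 6.12%, against 7.52% and 6.02%. The median GC content was 58.8% in the members' promoters and 58.0% in those of the genes tested. A match is a description of these letters and not a binding site.

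Energy metabolism supplied 3 list members. Pfkp, the platelet form of phosphofructokinase, had 2.52 in growth plate, 1.08 in interzone and 1.07 in interdigital tissue of mutants, against 3.89, 1.94 and 1.73 in the same tissues of controls. Both growth plate arrays stood above the other 4. Aldoc, the C form of aldolase, had 2.21, 0.78 and -0.67 in mutants, against 2.93, -0.83 and -1.56 in controls, in the same order. It differed between genotypes by -0.72 in growth plate, less than 2-fold. Pfkfb3, which makes the activator of phosphofructokinase, had 0.89, -0.12 and -0.59 in mutants, against 2.80, 1.14 and -0.76 in controls. Control interzone lay above mutant growth plate in that gene, and the smallest difference turned to -1.54 when the detected probes were averaged. The other 7 metabolic members, among them Cth for cysteine synthesis, Adk for adenosine and Got1 for aspartate, had smallest differences between 1.08 and 1.61.

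Of 5 members placed among homeobox and limb patterning genes, 0 were at least 2-fold lower and 3 at least 2-fold higher in mutant than in control growth plate. There 30.5% of all genes were lower and 21.8% higher, and 57.8% of the 192 members were lower and 6.25% higher. In interdigital tissue all 5 were at least 2-fold higher in mutants (8.71% of all genes, 12.5% of the 192 members), with a median of 2.82. In interzone 3 were (16.9% of all genes, 12.5% of the 192 members), and Dlx3 lay at -0.87. The 5 of 5 in interdigital tissue was found under each of the 4 other scalings (7.56% to 11.8% of all genes, 11.5% to 18.2% of the 192 members). In growth plate 4 were at least 2-fold higher with the percentile over detected probes (26.3% of all genes), 1 with normexp (19.0%), 0 with quantile (18.7%) and 0 with the deposited table (12.5%), where the median was 0.05. Hoxc6, a Hox gene of the trunk and forelimb level, had 0.08 in growth plate, -1.53 in interzone and -2.04 in interdigital tissue of mutants, against -1.14, -4.04 and -4.95 in controls. Its neighbour Hoxc8 had -1.65, -3.73 and -3.36 in mutants, against -2.89, -4.79 and -5.76 in controls. In both Hox genes each mutant array was brighter than the control array of its tissue, and the 2 growth plate arrays were the highest. Dlx3, a distal-less gene of limb ectoderm and bone, had margins of 1.85 in mutants and 1.5 in controls. Irx5, an Iroquois gene of limb bud patterning, had margins of 1.16 in mutants and 2.47 in controls, and Lix1, a gene named for its expression in the chick limb, of 1.13 in mutants and 1.51 in controls. For Hoxc8 normexp correction turned the smallest difference to -0.09. The epidermis markers, whose summed levels are given with the epithelial genes, were also higher on the mutant array of each tissue, and their part in these values was not tested.

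Epithelial genes formed a set of 6 members, whose median mutant minus control difference in growth plate was 0.88, or -0.25 with the scaling of the deposited table. Tfap2c, a transcription factor of ectoderm, had 2.85 in growth plate, 0.67 in interzone and 1.85 in interdigital tissue of mutants, against 1.28, -1.98 and -1.68 in controls. All 3 mutant arrays of Tfap2c were brighter than the control array of their tissue. Esrp1, the splicing factor of epithelial cells, had mutant minus control differences of 0.52 in growth plate, 1.62 in interzone and 3.24 in interdigital tissue. Lce1a1, a cornified envelope gene, had a mutant minus control difference of -2.16 in growth plate. The smallest of its 4 tissue differences was -0.34 after normexp. The summed level of the epidermis markers was 229.7 in mutant and 106.7 in control growth plate, 218.5 in mutant and 24.2 in control interzone, and 187.9 in mutant and 9.8 in control interdigital tissue. The sums cover all 12 listed genes, of which 10 were well above background on every array. Cdh1 and Trp63 were each well above background on 4 arrays, and of the 10 measured genes 0 passed the growth plate rule in mutants (5.77% of all genes) and 9 in controls (16%). The part of epidermal cells in these members' values was not tested.

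Genes of cell division and DNA replication numbered 15, of which 10 were at least 2-fold lower and 0 at least 2-fold higher in mutant growth plate. Of all genes 30.5% were lower and 21.8% higher, and of the 192 members 57.8% were lower and 6.25% higher. Under the other scalings 7 to 14 were lower. The 14 came with the deposited table, where 64.8% of all genes and 86.5% of the 192 members were. Kif20b, a kinesin of cell division, had 0.19 in growth plate, -3.75 in interzone and -2.56 in interdigital tissue of mutants, against 1.81, -4.34 and -0.79 in controls. Gtse1, a microtubule protein of the G2 and S phases, had -1.56, -4.21 and -3.74 in mutants, against 0.04, -3.03 and -2.56 in controls. The growth plate arrays were the 2 highest in both genes. Orc2 of the replication origin complex, the kinetochore genes Cenpk and Cenph and the pocket protein genes Rbl1 and Rbl2 belonged here with smallest differences of 1.04 to 1.63. General transcription and RNA processing added 13 members, whose smallest differences lay between 1.01 and 1.39, close to the limit. The helicase Ddx41, the chromatin factor Supt16 and the TFIID subunit Taf8 were among them. With the detected probes averaged, the smallest difference lay below 0 for the helicases Ddx21 and Ddx23, the transcription factor subunits Gtf2h2, Gtf3c3 and Bdp1, and the splicing factor Ptbp2.

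MAP kinase and Ras signalling gave 7 members, 3 of them at least 2-fold lower in mutant growth plate (30.5% of all genes, 57.8% of the 192 members). Dusp6, the phosphatase that switches off ERK and is induced by FGF signalling, had 0.91 in both mutant and control growth plate. On the other arrays Dusp6 had -0.68 in mutant and -2.56 in control interzone, and -1.79 in mutant and -1.04 in control interdigital tissue. The growth plate arrays were the highest, with a mutant minus control difference of -0.01. Dusp4, a related phosphatase, had -2.19 in mutant and -1.99 in control growth plate, against -4.72 to -3.61 elsewhere, but its smallest difference was -0.40 after normexp. Mapkapk3, a kinase downstream of p38, had 1.39 in mutant and 1.69 in control growth plate, against -1.40 to -0.36 elsewhere. In these 3 genes the growth plate level differed less than 2-fold between genotypes. With the scaling of the deposited table, however, all 7 members were at least 2-fold lower in mutants, as were 64.8% of all genes and 86.5% of the 192 members.

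Interferon and immune genes numbered 8. Beside Rsad2 these were Oas1c, Stat2 and Ube2l6 of the interferon response, Lbp and Il1a of inflammation, the class II chaperone Cd74 and the chemokine Cxcl16. Of the 8, 5 were at least 2-fold lower in mutant growth plate (30.5% of all genes, 57.8% of the 192 members). The smallest difference of Stat2 was -0.05 after normexp and that of Cxcl16 -1.10 with averaged probes. Cd74 had 0.20 in growth plate, -1.57 in interzone and -1.40 in interdigital tissue of mutants, against 2.33, -0.62 and -1.16 in controls. The summed level of the macrophage and leukocyte list, which held 0 members, was 7.1 in mutant and 15.5 in control growth plate, 19.7 in mutant and 6.5 in control interzone, and 14.2 in mutant and 21.5 in control interdigital tissue. Ptprc was well above background on 5 arrays and Mrc1 on 4, and the other 10 listed genes on all 6. The part of leukocytes in the members' values was not tested.

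Muscle genes gave 5 members, with 4 at least 2-fold lower in mutant growth plate (30.5% of all genes, 57.8% of the 192 members). The count was 4 in the other scalings too, except the deposited table. There it was 5, and 64.8% of all genes and 86.5% of the 192 members were lower. Csrp3, the muscle LIM protein, had -0.49 in growth plate, -2.69 in interzone and -2.48 in interdigital tissue of mutants, against 2.02, 0.15 and -2.54 in controls. Control interzone lay above mutant growth plate. The skeletal muscle markers had a summed level of 18.1 in mutant and 76.0 in control growth plate, 59.8 in mutant and 17.1 in control interzone, and 18.5 in mutant and 28.3 in control interdigital tissue. Of 16 markers Myf5 was well above background on 0 arrays and 15 on all 6, 0 passed the growth plate rule in mutants (5.77% of all genes) and 8 in controls (16%). The part of muscle cells was not tested. Sensory genes were members as well: Gnat1, the rod transducin subunit, 3 olfactory receptor genes and the vomeronasal receptor Vmn1r81, whose smallest difference was -0.70 after normexp.

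Beside Sumf1, Scrg1 and Frzb, the 5 members with the mutant minus control difference in growth plate furthest below 0 included AK034647 (-4.35) and Osgepl1 (-4.01), whose smallest differences were -1.99 and -0.32 after normexp. Among those furthest above 0 were NAP049726-1 (4.50), Abca8b (1.58), Tfap2c (1.56) and AK037291 (1.42). Of the 192 members 155 could be given a current RefSeq symbol, and 19.3% could not, close to the 19.6% among all genes tested.

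Other probes for the same genes give a reading that the rule did not use, though on the same arrays and RNA. There were 130 other probes for 80 members, and 69 of them, for 49 members, were well above background on all 6 arrays. Of these 69, 15 (21.7%) had growth plate above both other tissues in both genotypes and 2 (2.90%) did so by 1 or more throughout. Among 6210 other probes of all genes tested, also well above background on all 6 arrays, the shares were 12.7% and 1.43%. Those were matched by array gene name only, while the members' other probes were matched by array gene name or RefSeq symbol, so the sets are not quite alike. The probes that met the full rule belonged to Lix1, with a smallest difference of 2.61, and Vps54, with 1.28. For Lix1 the second probe had -0.32 in growth plate, -5.02 in interzone and -2.93 in interdigital tissue of mutants, against -0.36, -4.34 and -3.29 in controls. Both growth plate arrays were above all others there, whereas at the first probe mutant interdigital tissue (-1.54) lay just above control growth plate (-1.58).

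Second probes often disagreed with the first. Both other Pfkp probes kept all 4 differences above 0, with smallest values of 0.16 and 0.44. Of the other Pfkfb3 probes well above background on all arrays, one had a smallest difference of 0.27 and one of -8.01. The Chst11 probe measured on all 6 arrays had -1.84, and a probe measured on 5 had 0.88. For Rsad2 the probe measured on all 6 arrays had -2.39, while one well above background on 3 arrays, including both growth plate arrays, had 3.40. Kctd4 had 4 other probes, each well above background on only 2 arrays. The growth plate pattern of most members thus rests on 1 probe on 6 arrays.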

How the data were processed

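RNA of 3 tissues in 2 genotypes was measured on 6 one-colour Agilent arrays of 43379 spots, read with Agilent Feature Extraction 9.5.1.1, per the file headers. The intensity of each spot, the processed signal, was background-subtracted by the authors' scanner software, per the file headers. A further table that the authors deposited holds a linear ratio, the processed signal over the array median, as found by setting each of its columns (median 1) against the scanner values. It served as an alternative only.

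Spots marked as outliers were left out, spots of a probe were averaged, and 89 probes with every spot outlying on an array were dropped. No spot was saturated. Levels are log2 processed signals from which the 75th percentile of the array's non-control spots was subtracted, computed, with pandas 2.3.3 and, for alternatives, limma 3.58.1. Depth is limited by signal over background.

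Members and gene lists were chosen with earlier results of these data known. Named are the 12 members with the largest smallest difference, the 5 nearest the limit on each side, members on the lists, the 5 largest growth plate differences between genotypes in each direction, and role examples chosen after their values were seen. Some members that qualified are left unnamed. Non-member list genes are given by counts, with at most 3 valued per list, in list order. Names were matched to RefSeq by accession for 135 members, by symbol for 14 and by older symbol for 6. The alternatives were 10 planned changes of background correction, scaling, probe, threshold or filter, a slide 2 comparison, and 3 added after seeing the data.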

Additional observations from a re-analysis of the deposited data

Results flagged for a closer look

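Ppp1r14a, the inhibitor of myosin phosphatase in smooth muscle, was the one member of the 98 named whose mutant minus control difference had one sign in growth plate and the opposite sign in both other tissues, by 2-fold or more throughout. The difference was -1.72 in growth plate, 5.06 in interzone and 3.75 in interdigital tissue. Its levels were 1.58 in growth plate, 0.54 in interzone and -0.85 in interdigital tissue of mutants, against 3.30, -4.52 and -4.61 in the same tissues of controls. Growth plate was the highest tissue in each genotype, with a margin of 1.04 in mutants and 7.82 in controls. With 1 array per group, the difference between tissues was not tested.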

How the results depend on the processing

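The number of members moved more with scaling and background correction than with the probe rule. Which genes were members depended on the probe rule too, as averaged probes shared 151 of the 192. Against 192 members, normexp correction gave 101 (91 shared), the deposited ratios gave 466 (177 shared), a threshold of 1.5 gave 71 and of 2 gave 12, mutant growth plate against mutant interdigital tissue only, with the rule in controls kept, gave 429, and the rule in mutants without any condition on controls, chosen after seeing the data, gave 955. Quantile normalization (287, 155 shared), the percentile over detected probes (148, 145 shared), averaged probes (169, 151 shared), detection on both growth plate arrays only (276), no detection filter (287), Rik names kept (235), and the brightest probe among detected ones (192) or by linear mean (201), both added after seeing the data, moved the count by 1.5 times or less. In mutants alone, 955 genes became 497 with normexp, 449 and 220 at thresholds of 1.5 and 2, and 1820 with no detection filter. In controls alone, 2642 became 1715 with the percentile over detected probes, 8847 in the deposited table, and 1524 and 862 at the stricter thresholds. List members numbered 5 with normexp, 15 in the deposited table, and 2 and 1 at the thresholds, in place of 9. Cartilage markers passing in both genotypes numbered 1 of 16 after quantile normalization and 1 in the deposited table, and 0 in the other settings examined (normexp, detected percentile, averaged probes).

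The share of members at least 2-fold lower in mutant growth plate was 57.8%, with shares of all genes in brackets here and below (30.5%). It was 48.5% with normexp (28.3%), 34.5% with quantile (37.8%) and 50.7% with the detected percentile (21.2%). In the deposited table it was 55.4% (64.8%), and at thresholds of 1.5 and 2 it was 67.6% and 83.3% (30.5%). The share higher there was 16% with quantile (18.7%). In interzone the lower share was 26.7% with normexp (12.0%) and 23.0% with quantile (19.6%). The higher share there was 25.7% with normexp (31.4%), 22.3% with quantile (19.9%) and, at a threshold of 2, 8.33% (16.9%). Of the 192 members of the main result, 14.1% were lower and 39.6% higher in interzone with normexp. In interdigital tissue the lower share was 20.8% with normexp (10.9%), 25.1% with quantile (13.8%) and 18.9% in the deposited table (11.5%). At the thresholds it was 50.7% and 75% (15%). The higher share there was 18.8% with normexp (7.56%), 19.2% with quantile (11.8%) and 0% at a threshold of 2 (8.71%).

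Of 98 named members, 19 had a smallest difference below 0 with normexp: Foxa2 -0.57, Lce1a1 -0.34, AK040368 -0.25, Mettl15 -1.88, AK085010 -1.70, Scrg1 -0.049, Sumf1 -1.65, AK034647 -1.99, Osgepl1 -0.32, AK037291 -0.52, Lmcd1 -0.12, Hoxc8 -0.087, Olfr120 -0.17, Dusp4 -0.40, Vmn1r81 -0.70, Olfr738 -1.04, Krtap4-7 -1.51, Soat1 -1.42 and Stat2 -0.051. With averaged probes 13 did: Pfkfb3 -1.54, Gtf3c3 -0.35, Mvk -0.29, Gtf2h2 -0.80, Egflam -0.46, Ddx21 -0.64, Ddx23 -2.41, Cxcl16 -1.10, Ptbp2 -1.08, Soat1 -0.087, Mapkbp1 -1.08, Taok3 -0.14 and Bdp1 -0.11. With quantile 1 did, Soat1 at -1.64. The cause was not tested. With 1 array per group no replicate could be left out. No paired analysis was possible because the labels carry no replicate numbers and each group has 1 array. Signal over background limits the dim genes most, above all on the growth plate control array.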
